A study of Mus musculus with 8 samples.

Results

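Replication-dependent histone genes encode the core histones H2A, H2B, H3 and H4 and the linker histone H1 that package newly copied DNA. They were taken as the protein-coding genes of the GENCODE M21 annotation whose names start with Hist1h, Hist2h, Hist3h or Hist4h, which gave 67 of 21951 protein-coding genes. The set held 6 H1, 18 H2A, 18 H2B, 12 H3 and 13 H4 genes. The Hist1 cluster on chromosome 13 had 54 of them, Hist2 on chromosome 3 had 10, Hist3 on chromosome 11 had 2 and Hist4 on chromosome 6 had 1, Hist4h4. A gene was counted as having a promoter peak when a deposited peak overlapped the 1000 bp to either side of any of its transcript starts by at least 20 bp.

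The peaks came from chromatin immunoprecipitation followed by sequencing (ChIP-seq), a method that pulls down fixed chromatin with an antibody, reads the attached DNA and calls a peak wherever fragments gather. All 8 libraries came from E14Tg2a, a mouse embryonic stem cell line used between passages 37 and 40, and each pooled the chromatin of several plates. Pluripotent embryonic stem cells (ESCs) grew with leukemia inhibitory factor (LIF). To obtain neuronal cells (NCs), LIF was withdrawn and monolayers received 1 µM retinoic acid (RA) over 48 h. The 3 libraries from LIF were made with antibodies to FGFR1 (a fibroblast growth factor receptor that can enter the nucleus), to RXR (named RXRα in the sample titles, the partner of the retinoic acid receptors) and to Nur77 (an orphan nuclear receptor). The 5 libraries from RA comprised a pair for FGFR1, here replicates 1 and 2 although the labels call the latter another experiment, and 1 each for RXR, Nur77 and the histone variant H3.3. The controls and the treated cells carried no genetic change that the labels mention. No tissue marker can be read from peak lists, so the cell states rest on the labels. With 1 library in 6 of the 7 groups, differences between LIF and RA were not tested, and the spread between the FGFR1 replicates in RA was the only replicate error.

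Most replication-dependent histone genes are short and lack introns. Their messenger RNAs end in a stem-loop instead of a poly(A) tail, and the stem-loop binding protein SLBP carries them through processing. They are transcribed in S phase at nuclear bodies that form on the clusters, where the coactivator NPAT, a target of cyclin E with CDK2, collects. HINFP binds a conserved element in H4 promoters, the octamer of H2B promoters binds OCT1 (Pou2f1), and many H2A and H2B genes stand head to head and share a short promoter. Embryonic stem cells divide fast and spend much of their cycle in S phase.

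The promoter sequences show how the histone types differ, and the examples below are those that the results turn on. They were read from the GRCm38 assembly, which is the same as mm10, and each of the single-gene stretches holds the 200 bp before the annotated start, written 5′ to 3′ on the gene's strand. Capitals mark words of a list that was searched on both strands: GGTCCG (core of the H4 element), AAACACA (H1 box), CCAAT (known as a site of the factor NF-Y), TATAAA (the box bound by the TATA-binding protein), ATTTGCAT (octamer), TGACGT (core of the cAMP response element), TTTGGCGC or TTTCCCGC (E2F) and AGGTCA (a core word of nuclear receptor sites). The H4 examples are the gene with peaks in every library (Hist4h4), strongly bound genes of Hist1 (Hist1h4i and Hist1h4d), a gene without a peak (Hist1h4f) and the H4 gene that lacks the H4 word (Hist1h4a).
Hist4h4, upstream, chr6:136804416-136804615, minus strand: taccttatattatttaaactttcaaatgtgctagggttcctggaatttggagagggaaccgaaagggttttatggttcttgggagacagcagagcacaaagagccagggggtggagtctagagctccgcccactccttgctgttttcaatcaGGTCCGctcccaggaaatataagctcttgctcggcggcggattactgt
Hist1h4i, upstream, chr13:22041363-22041562, minus strand: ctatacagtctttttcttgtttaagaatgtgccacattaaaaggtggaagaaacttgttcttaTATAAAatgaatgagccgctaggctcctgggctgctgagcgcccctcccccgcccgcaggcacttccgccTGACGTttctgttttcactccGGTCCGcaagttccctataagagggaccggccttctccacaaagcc
Hist1h4d, upstream, chr13:23581398-23581597, plus strand: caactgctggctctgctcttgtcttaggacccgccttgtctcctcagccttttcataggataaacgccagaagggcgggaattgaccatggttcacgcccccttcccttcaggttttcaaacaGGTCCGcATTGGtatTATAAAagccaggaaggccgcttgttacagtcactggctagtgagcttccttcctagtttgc
Hist1h4f, upstream, chr13:23551649-23551848, minus strand: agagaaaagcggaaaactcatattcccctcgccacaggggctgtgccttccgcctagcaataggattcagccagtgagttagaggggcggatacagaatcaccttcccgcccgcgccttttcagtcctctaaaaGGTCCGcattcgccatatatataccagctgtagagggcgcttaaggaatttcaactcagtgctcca
Hist1h4a, upstream, chr13:23761231-23761430, minus strand: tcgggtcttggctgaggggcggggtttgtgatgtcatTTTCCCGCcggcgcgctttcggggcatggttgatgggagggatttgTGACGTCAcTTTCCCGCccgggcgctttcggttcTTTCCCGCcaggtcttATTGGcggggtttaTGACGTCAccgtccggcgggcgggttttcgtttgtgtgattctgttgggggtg

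The H1 examples are the genes with the strongest H1 peaks, and in each of them the H1 box stands more than 100 bp before the start and a CCAAT word stands nearer to the start.
Hist1h1c, upstream, chr13:23738608-23738807, plus strand: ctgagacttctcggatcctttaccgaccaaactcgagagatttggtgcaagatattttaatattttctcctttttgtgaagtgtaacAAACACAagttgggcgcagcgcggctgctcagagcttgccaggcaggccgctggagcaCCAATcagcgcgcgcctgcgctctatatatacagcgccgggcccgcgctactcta
Hist1h1e, upstream, chr13:23622559-23622758, minus strand: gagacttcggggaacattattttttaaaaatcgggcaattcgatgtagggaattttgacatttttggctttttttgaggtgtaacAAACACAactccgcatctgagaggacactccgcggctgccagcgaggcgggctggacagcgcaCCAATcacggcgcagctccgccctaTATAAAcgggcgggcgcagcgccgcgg
Hist1h1b, upstream, chr13:21780626-21780825, minus strand: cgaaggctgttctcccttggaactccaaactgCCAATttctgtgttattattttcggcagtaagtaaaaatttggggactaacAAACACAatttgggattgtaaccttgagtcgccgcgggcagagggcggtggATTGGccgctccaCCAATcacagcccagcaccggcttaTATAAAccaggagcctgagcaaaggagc

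The stretches between the starts of divergent H2A and H2B genes show CCAAT words in both orientations, first for a pair with FGFR1 peaks (Hist1h2ac with Hist1h2bc) and then for a pair without a peak in any library (Hist1h2bf with Hist1h2ad). In both, the gene named first is transcribed to the left and the other to the right.
Hist1h2ac and Hist1h2bc, between the starts, chr13:23683949-23684198, plus strand: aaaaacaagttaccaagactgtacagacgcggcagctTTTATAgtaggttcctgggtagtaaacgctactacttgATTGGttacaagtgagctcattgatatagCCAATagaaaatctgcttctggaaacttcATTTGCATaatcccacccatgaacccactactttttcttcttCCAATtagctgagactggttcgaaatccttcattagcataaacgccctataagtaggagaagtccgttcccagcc
Hist1h2bf and Hist1h2ad, between the starts, chr13:23574197-23574380, plus strand: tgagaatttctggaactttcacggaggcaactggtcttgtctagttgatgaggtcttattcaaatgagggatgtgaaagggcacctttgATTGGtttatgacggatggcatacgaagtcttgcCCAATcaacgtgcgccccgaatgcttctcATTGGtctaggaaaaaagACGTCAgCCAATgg

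In the 250 bp before the start, GGTCCG was found at 12 of the 13 H4 genes (92.3%) and at 7.68% of all protein-coding genes. In these 12 genes it began between -80 and -11 bp from the start, with a median of -49 bp. The exception, Hist1h4a, held the E2F word 3 times and was the only one of the 67 genes with it (1.49%, against 1.56% of all genes). CCAAT occurred at all 18 H2A and all 18 H2B genes and at 54 of the 67 histone genes (80.6%), against 36.02% of all genes. The octamer word was found at 7 H2A and 8 H2B genes and at no H1, H3 or H4 gene, which is 22.4% of the histone genes against 1.45% of all genes. The TATA word was present at 34 histone genes (50.7%, against 11.5%) and the cAMP response word at 18 (26.9%, against 7.16%), and these words may overlap each other by a base or more, as CCAAT and TGACGT can. The H1 box was found at 4 of the 6 H1 genes, between -117 and -113 bp from the start, and at 5.66% of all genes. Hist1h1d, counted as lacking it, was searched before an annotated start 1828 bp from its coding sequence. For Hist1h2be, counted with CCAAT, that distance was 35168 bp. AGGTCA was found before none of the 67 starts and before 12.8% of all starts. Outside these 250 bp, only the sequences of some peaks upstream of genes or past their ends were read. Among those, AGGTCA lay in FGFR1 peaks past the end of Hist1h1b (LIF and RA replicate 1) and upstream of Hist1h4a (both RA replicates). Peaks with summits in coding or untranslated parts are not covered. These are matches of letters, and neighbouring divergent genes share part of the windows searched.

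FGFR1 was found at more histone genes than any other antibody, in LIF as well as in RA. In LIF, 23 of the 67 genes (34.3%, exact 95% interval 23.2 to 46.9) had an FGFR1 promoter peak, against 17.0% of all protein-coding genes. RXR in LIF had peaks at 9 (13.4%, 6.33 to 24.0), against 42.5%, and Nur77 in LIF at 10 (14.9%, 7.40 to 25.7), against 25.5%. In RA, FGFR1 replicate 1 had peaks at 28 (41.8%, 29.8 to 54.5), against 50.7%, and replicate 2 at 52 (77.6%, 65.8 to 86.9), against 49.6%. RXR in RA had peaks at 6 (8.96%, 3.36 to 18.5), against 23.3%, Nur77 at 5 (7.46%, 2.47 to 16.6), against 25.8%, and H3.3 at 3 (4.48%, 0.933 to 12.5), against 15.5%. The interval of the histone share thus lay above the share of all genes for FGFR1 in LIF and in replicate 2, below it for RXR in LIF and for RXR, Nur77 and H3.3 in RA, and held it for Nur77 in LIF and FGFR1 replicate 1. The intervals are Clopper-Pearson intervals that cover counting error only, and histone genes that share a window are not independent.

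**Figure D1:**
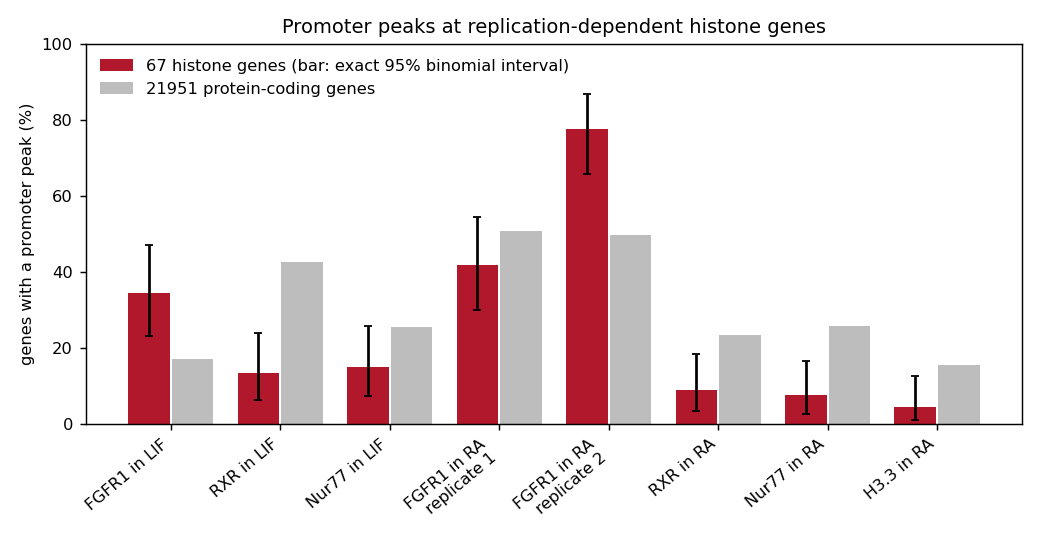
Share of the 67 histone genes (dark) and of all 21951 protein-coding genes (grey) with a promoter peak, in percent, for each of the 8 libraries. Error bars are exact 95% binomial intervals for the histone genes. FGFR1 replicate 2 stands highest at 77.6%, and RXR and Nur77 in both cell states and H3.3 in RA lie at 14.9% or less.

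The libraries differed in depth and in the form of their peaks. The lists held 10634 to 46137 peaks, and the background density inferred from the deposited values ran from 1.27 fragments per kb (H3.3) to 7.09 (RXR in LIF). FGFR1 replicate 2 had a density of 6.78, a median peak width of 311 bp and a median of 27 fragments at the summit, whereas replicate 1 had 4.16, 89 bp and 10. The part of these differences in the gap between 28 and 52 genes was not tested.

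Copies of histone genes resemble each other, and reads that mapped more than once had been discarded by the authors. Of the words of 36 bases that start in a histone promoter window, a median of 77.2% over the genes occurred once in the genome, against 97.6% for all protein-coding genes. The read length is not given in the sources used here, and words of 50 bases gave 79.3%. By type the median was 99.4% for H1, 87.9% for H4, 76.2% for H3, 68.5% for H2B and 68.1% for H2A. In the coding sequences the median was 18.0% for H3, 20.8% for H2A, 23.8% for H2B and 34.0% for H4, while it was 98.1% for H1. In the 250 bp upstream of the start the median was 100% for every type, although the lowest value was 0% for H2A, H2B and H4 and 7.60% for H3. Over the 31 histone genes with at least 80% unique words, FGFR1 had peaks at 14 in LIF (45.2%), against 18.8% of the 19427 protein-coding genes with such windows. RXR in LIF had peaks at 8 (25.8%), against 47.1%, and Nur77 in LIF also at 8 (25.8%), against 28.3%. In RA, FGFR1 had peaks at 20 in replicate 1 (64.5%), against 56.3%, and at 26 in replicate 2 (83.9%), against 55.1%. RXR in RA had 6 (19.4%), against 25.8%, Nur77 had 5 (16.1%), against 28.6%, and H3.3 had 3 (9.68%), against 17.2%. In these windows the interval lay above the background for FGFR1 in LIF (lower bound 27.3) and in replicate 2 (66.3 to 94.5) and below it for RXR in LIF (11.9 to 44.6). It held the background in the other 5 libraries, among them replicate 1 (45.4 to 80.8).

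**Figure D2:**
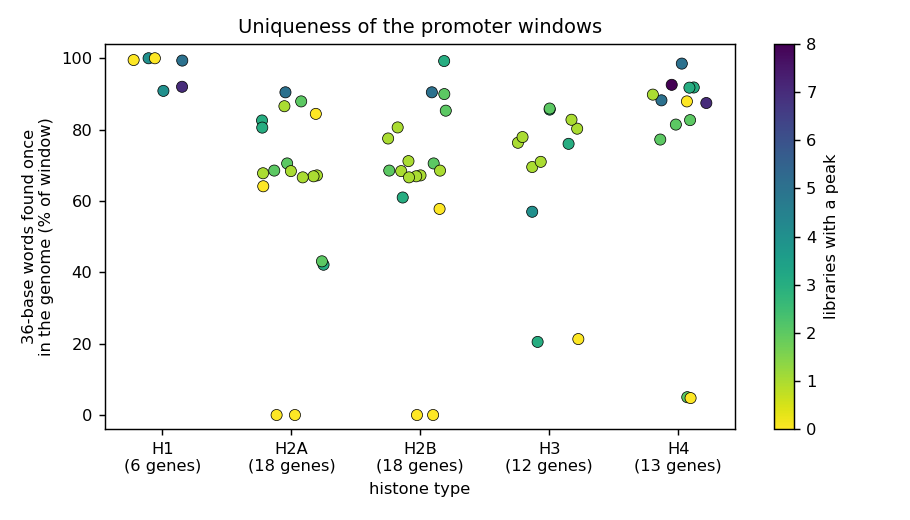
Share of 36-base words in each histone gene's promoter window that occur once in the genome, in percent, by histone type. Each point is a gene and its colour gives the number of libraries with a promoter peak, from 0 to 8. H1 windows lie above 90%, many H2A and H2B windows lie near 68%, and 6 windows lie below 5%.

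From LIF to RA the number of histone genes with an FGFR1 peak was higher by 5 in replicate 1 and by 29 in replicate 2. The RA mean was 40 ± 17.0 genes (SD, n = 2) against 23 in LIF, a difference of 17 genes that equals the SD to the digits given. Over all protein-coding genes the same comparisons gave 7407 and 7163 more genes in RA. RXR had 3 fewer histone genes in RA than in LIF and Nur77 had 5 fewer, with no replicate check, while over all protein-coding genes the differences were -4210 and 71. Background density differed in the same direction as the histone counts, at 7.09 fragments per kb in LIF and 1.87 in RA for RXR, 4.98 and 3.82 for Nur77, and 2.71 against 4.16 and 6.78 for FGFR1. With every library scaled to the depth of the H3.3 library, RXR had 4 more histone genes in RA than in LIF and Nur77 had 2 more, and FGFR1 replicate 1 had 21 genes against 23 in LIF. With lists of equal length FGFR1 replicate 1 had 19, while replicate 2 stayed at 52. Under these settings replicate 2 still had more histone genes than LIF, and replicate 1 had fewer.

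The FGFR1 libraries shared many of their genes. Of the 23 genes with an FGFR1 peak in LIF, 22 (95.7%) had 1 in replicate 2 and 17 (73.9%) in replicate 1. Over all protein-coding genes with an FGFR1 peak in LIF the shares were 91.1% and 93.5%. Of the 28 genes of replicate 1, 27 (96.4%) were among the 52 of replicate 2, of which they make up 51.9%. Over all protein-coding genes these shares were 77.8% and 79.5%. All 3 FGFR1 libraries had a peak at 16 histone genes (23.9%, against 14.7% of all genes). These included 4 H1 genes (Hist1h1a, Hist1h1b, Hist1h1c and Hist1h1e) and 6 H4 genes (Hist1h4c, Hist1h4d, Hist1h4h, Hist1h4i, Hist2h4 and Hist4h4). A further 11 genes (16.4%, against 24.8%) had FGFR1 in both RA libraries and not in the LIF library, which serves both comparisons. They were the Hist3 pair, the pairs Hist1h2bl with Hist1h2ai, Hist1h2ba with Hist1h2aa and Hist2h2ac with Hist2h2be, and Hist2h2ab, Hist1h4a and Hist1h3a. At 19 genes (28.4%, against 4.79%) the peak was in FGFR1 replicate 2 and in no other library, and 12 of these are H2A or H2B genes. No H1 gene was among them.

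The gene with peaks in the most libraries was an H4 gene. FGFR1 marked 9 of 13 H4 genes in LIF (69.2%, against 17.0% of all genes). In the RA replicates it marked 7 and 11 (53.8% and 84.6%, against 50.7% and 49.6%). All 3 H3.3 peaks at histone promoters were at H4 genes (23.1% of them, against 15.5% of all genes). Hist4h4, the single Hist4 gene, runs from 136801553 to 136804415 on chromosome 6 (mm10, minus strand) and was the only histone gene with a peak in all 8 libraries (1.49%, against 2.90% of all genes). The strength of a peak is given here as the −log10 p that the peak caller assigned to its summit, which grows with depth and is comparable within a library. In LIF the FGFR1 peak at Hist4h4 had a −log10 p of 48.4, the RXR peak 18.3 and the Nur77 peak 30.9. In RA the FGFR1 replicates had 66.4 and 194, RXR 24.2, Nur77 14.4 and H3.3 22.9. The deposited fold over background was lowest for Nur77 in RA, at 8.62, and highest for FGFR1 replicate 1, at 21.4, with 14 to 210 fragments at the summit. Replicate 2 ranked this peak 7 in its list of 14082, and it was the strongest peak at a histone promoter there, in Nur77 from LIF and in RXR, Nur77 and H3.3 from RA. All 36-base words within these peaks occurred once in the genome (100%).

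Hist1h4h on chromosome 13 (23531050 to 23531519, plus strand) had peaks in 7 libraries. Its highest −log10 p in LIF was 25.8 with FGFR1, 7.995 with RXR and 9.17 with Nur77. The FGFR1 replicates in RA had 45.3 and 58.1, Nur77 had 11.2 and H3.3 had 9.47, and RXR had no peak. Only the FGFR1 libraries had a peak over its coding sequence. Hist2h4 and Hist1h4i had peaks in 5 libraries each. At Hist2h4 the −log10 p was 26.1 for FGFR1 and 18.5 for RXR in LIF, and 37.6, 87.0 and 10.5 for FGFR1 replicates 1 and 2 and H3.3 in RA. At Hist1h4i it was 28.5, 10.5 and 8.96 for FGFR1, RXR and Nur77 in LIF and 26.6 and 63.9 for the FGFR1 replicates, and RXR and Nur77 had no peak there in RA. Hist1h4d was bound by FGFR1 alone, at 39.8 in LIF and 30.4 and 85.9 in RA. All of the H4 genes named so far except Hist1h4a hold the H4 word, and so does Hist1h4f, which had no peak in a window that is 87.9% unique. With the word before 12 of the 13 H4 genes, its relation to peaks cannot be judged among them and was not tested.

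At H1 genes, FGFR1 had peaks at the same 4 of 6 (66.7%) in LIF and in both RA libraries. The shares of all genes in these libraries were 17.0%, 50.7% and 49.6%. Hist1h1c, a somatic linker histone gene (chromosome 13, 23738808 to 23740367, plus strand), had a −log10 p of 74.4 with FGFR1, 16.0 with RXR and 12.001 with Nur77 in LIF. The values in RA were 83.6 and 139 with FGFR1, 7.68 with RXR and 9.79 with Nur77. Its FGFR1 peak was the strongest of all histone promoter peaks in LIF and in replicate 1, where it ranked 32 of 46137. Hist1h1b had 53.3 for FGFR1 and 9.43 for Nur77 in LIF, 25.2 and 106 for FGFR1 in RA and 8.22 for RXR in RA. The 53.3 lay past the gene's end, and the FGFR1 peak over the gene in LIF had 16.0. At Hist1h1e the highest values were 30.96 for FGFR1 in LIF, 31.4 and 149 for FGFR1 in RA and 11.5 for RXR in RA. They came from different places. The 30.96 had its summit inside the gene, 549 bp upstream of the annotated Hist1h2be start, and peaks there had 16.3 and 9.30 in RA. The 31.4 and 149 lay 78 and 59 bp past the Hist1h1e start, where FGFR1 in LIF had 13.8. Hist1h1a had 11.9 and 11.8 for FGFR1 and RXR in LIF and 13.5 and 99.9 for FGFR1 in RA. The H1 windows were 90.9% to 100% unique.

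At H3 genes, which encode the replication-coupled H3 proteins, neither RXR nor H3.3 had a peak at any of the 12 genes. Of all protein-coding genes, 42.5% had RXR in LIF, 23.3% had RXR in RA and 15.5% had H3.3. H3.3 had no peak at the H1, H2A and H2B genes either. A missing peak says only that no pile-up passed the authors' limit. FGFR1 marked 4 H3 genes in LIF (33.3%, against 17.0% of all genes). In the RA replicates it marked 4 and 11 (33.3% and 91.7%, against 50.7% and 49.6%). Nur77 marked 2 in LIF (16.7%, against 25.5%) and none in RA (against 25.8%). At Hist1h3c the Nur77 summit lay nearer to the start of Hist1h2bb. Hist1h3e had a −log10 p of 24.5 for FGFR1 and 8.997 for Nur77 in LIF and of 25.3 and 96.5 for FGFR1 in RA. Hist2h3c2 was bound in the 3 FGFR1 libraries through summits at -525, -517 and -516 bp from its start, although only 20.5% of its window was unique. Its near copy Hist2h3c1 (21.3%) had no peak. The variant H3.3 is made throughout the cell cycle from genes outside these clusters.

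At H2A and H2B genes the FGFR1 share was near that of all genes in LIF. It was lower than that share in replicate 1 and higher in replicate 2. Of 18 H2A genes, 3 had FGFR1 in LIF (16.7%) and 7 and 13 in the RA replicates (38.9% and 72.2%). Of 18 H2B genes the numbers were 3, 6 and 13 (16.7%, 33.3% and 72.2%). The shares of all genes were 17.0%, 50.7% and 49.6%. RXR and Nur77 had peaks at 1 or 2 genes of each type in LIF and at 1 of each in RA, and H3.3 at none. Of all genes, 42.5% and 25.5% had RXR and Nur77 in LIF. In RA 23.3%, 25.8% and 15.5% had RXR, Nur77 and H3.3. The H2A and H2B windows had the lowest median uniqueness (68.1% and 68.5%), and its part in these counts was not tested. The H2A and H2B genes with peaks of both receptors in RA were the divergent pair Hist1h2aa and Hist1h2ba, known as testis forms. Hist1h2ba was counted through the shared window, in which all summits lay in the coding sequence of Hist1h2aa. In RA the RXR peak (23934686 to 23934810) and the Nur77 peak (23934500 to 23934641) did not overlap. The peaks in this shared window had a −log10 p of 10.1 for Nur77 in LIF, 13.0 and 30.1 for FGFR1 in RA, 8.37 for RXR in RA and 10.6 for Nur77 in RA. FGFR1 and RXR had no peak there in LIF. The third testis gene of the clusters, the linker histone gene Hist1h1t, had no peak in any library although its window was 100% unique.

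**Figure D3:**
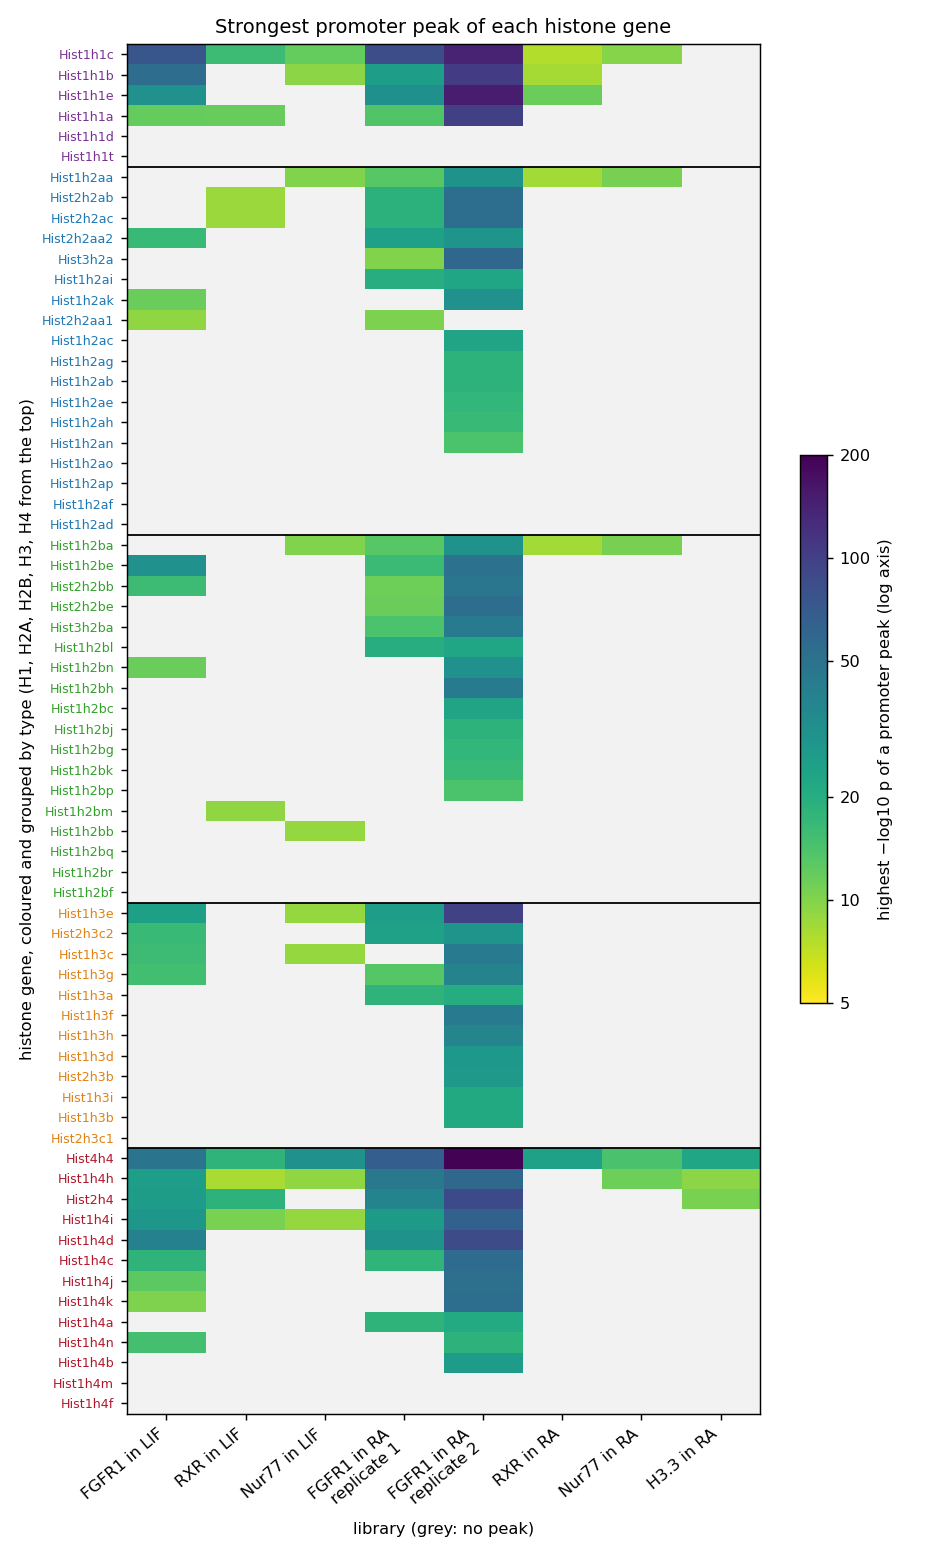
Highest −log10 p (log colour axis) of a promoter peak for each of the 67 histone genes (lines of the map, grouped as H1, H2A, H2B, H3 and H4 from the top) in each of the 8 libraries (columns), with grey for no peak. Hist4h4 is coloured in all 8 columns, the column of FGFR1 replicate 2 is filled for 52 genes, and the RXR, Nur77 and H3.3 columns are mostly grey.

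At 12 histone genes (17.9%, against 34.5% of all genes) no library had a promoter peak. They were 4 H2A genes (Hist1h2ad, Hist1h2af, Hist1h2ao and Hist1h2ap), 3 H2B genes (Hist1h2bf, Hist1h2bq and Hist1h2br), Hist1h1d and Hist1h1t, Hist1h4f and Hist1h4m, and Hist2h3c1. The windows of Hist1h2ao, Hist1h2ap, Hist1h2bq and Hist1h2br held no unique word at all and that of Hist1h4m held 4.75%, so that 36-base reads inside these words have no single place in the genome. Hist1h4n, which shares its upstream sequence with Hist1h4m (100% identity over the 200 bp), was 4.998% unique and still had FGFR1 peaks of 14.9 in LIF and 18.5 in replicate 2. Their summits lay 661 and 660 bp past the start, beyond the end of the gene, and 21.7% and 18.6% of the words in these peaks were unique. By contrast, Hist1h1d, Hist1h1t and Hist1h2af were 99.5%, 100% and 84.4% unique.

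The annotation decided the call at Hist1h1d and Hist1h2be. The annotated start of Hist1h1d lies 1828 bp before its coding sequence, and the RefSeq start lies 1770 bp further into the gene than that of GENCODE. Within 1000 bp of its first coding base FGFR1 had peaks with a −log10 p of 31.7 in LIF and 38.4 and 120 in RA, and RXR had a peak of 9.24 in LIF. With its coding start, Hist1h1d thus had FGFR1 in all 3 libraries, as the other 4 somatic H1 genes of the set did. The annotated start of Hist1h2be lies 35168 bp from its coding sequence, beside Hist1h1e. It was counted in the 3 FGFR1 libraries through peaks inside Hist1h1e, and no library had a peak at its first coding base. With the first coding base as the start of every gene the counts were 23, 10 and 10 for FGFR1, RXR and Nur77 in LIF and 28, 52, 6, 5 and 3 in RA, in the order above. For 66 of the 67 genes the GENCODE and RefSeq starts lay within 100 bp.

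Peaks at histone genes lay over the genes rather than before them. Of the 140 histone promoter peaks in the 8 libraries, 79 had their summit in a coding sequence, 16 between the start and the coding sequence, 11 in a 3′ untranslated part, 12 past the 3′ end and 22 upstream of the start. These places rest on the annotated starts. The upstream summits include those of Hist1h2be, which lie inside Hist1h1e. They also include some past the RefSeq start, such as that of Hist1h3h at -4 bp (RefSeq start at -31 bp). In LIF, 24 of 28 FGFR1 summits (85.7%) lay downstream of the start, against 59.6% of all FGFR1 promoter peaks. In RA it was 26 of 31 (83.9%, against 59.7%) in replicate 1 and 44 of 53 (83.0%, against 56.4%) in replicate 2. Fewer of them were close to the start. Within 250 bp lay 50% in LIF (80.1% of all promoter peaks), 51.6% in replicate 1 (72.4%) and 71.7% in replicate 2 (86.3%). The median −log10 p of histone peaks and of all promoter peaks was 16.0 and 10.4 in LIF, 19.7 and 11.5 in replicate 1 and 27.9 and 22.3 in replicate 2. The median fold enrichment was 9.01 and 6.88 in LIF and 10.7 and 7.36 in replicate 1, while in replicate 2 it was lower for histone peaks, at 8.16 and 8.82. Histone genes are short, so that a window of 1000 bp reaches past many of them, and the part of gene length in these positions was not tested.

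**Figure D4:**
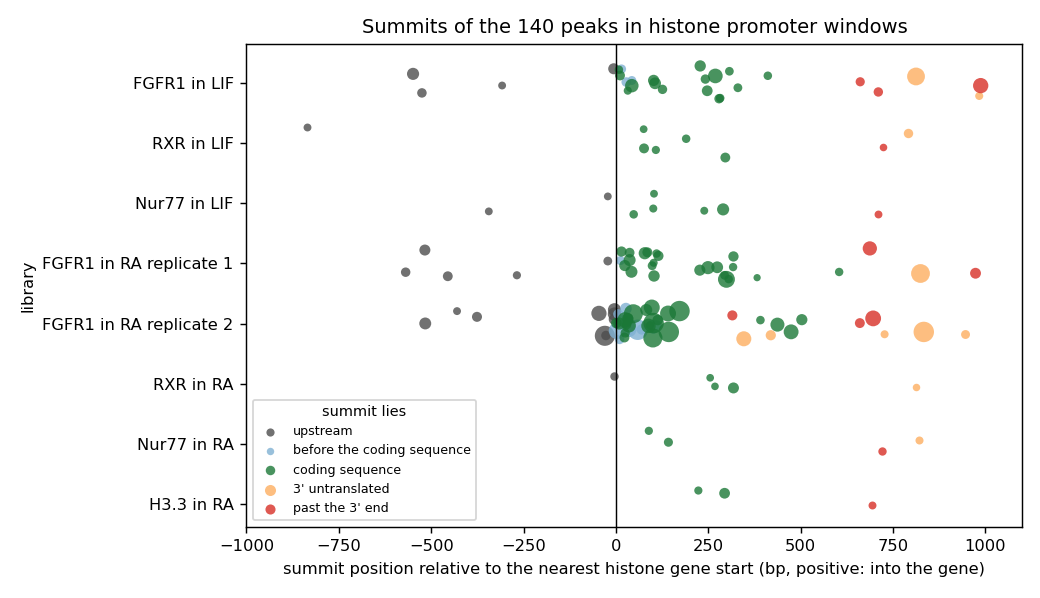
Summit positions of the 140 peaks in histone promoter windows, in bp from the nearest histone gene start (positive into the gene), for each of the 8 libraries. Colour gives the place of the summit in the gene model and a larger point a higher −log10 p. Most summits lie at or right of the start line, and the points right of 500 bp include those at Hist1h4h and Hist1h1c that recur across libraries.

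Several summits recurred close together. Summits at most 150 bp from the next were joined in a chain, so a place can be wider than 150 bp. This gave 68 places, of which 37 were found in 1 library and 9 in 4 or more. The place at Hist4h4 was found in all 8 libraries, in the coding sequence 142 to 318 bp past the start. The next lay 687 to 724 bp past the start of Hist1h4h, beyond its 3′ end, in 7 libraries. No annotated gene covers it, and the nearest start is that of Hist1h4h. Its −log10 p was 16.0 for FGFR1 in LIF and 45.3 and 57.2 in RA, and it alone held the RXR, Nur77 and H3.3 peaks of that gene. The over-gene summit near 102 bp was found in the FGFR1 libraries alone, at 25.8, 19.7 and 58.1. So FGFR1 replicate 1 was stronger past the gene, LIF was stronger over the gene, and replicate 2 was about equal at both. The FGFR1 peak past the gene in LIF is shown as the sequence that the antibodies shared, and no word of the list lies in it.
Hist1h4h, past the gene's end, chr13:23531684-23531843, plus strand: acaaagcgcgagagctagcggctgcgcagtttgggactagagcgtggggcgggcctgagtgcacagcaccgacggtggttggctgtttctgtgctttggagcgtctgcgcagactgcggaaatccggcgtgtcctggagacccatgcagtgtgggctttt

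At Hist1h1c the summit shared by 6 libraries lay 790 to 833 bp past the start, in the 3′ untranslated part. FGFR1 had 74.4 there in LIF and 83.6 in replicate 1, against 17.1 and 30.1 at a separate summit close to the start. In replicate 2 both lay under a single peak of 1294 bp. RXR had its peak at the 3′ place in LIF and in RA. Nur77 had its peak 48 bp past the start in LIF and 819 bp past it in RA. Places found in 5 libraries were Hist1h1b (median 239 bp), Hist1h4i (103 bp), Hist1h2aa (105 bp) and Hist2h4 (223 bp), all in coding sequence, and Hist1h3e (-14 bp) and Hist1h1e (51 bp) were found in 4. At Hist1h2aa the joined summits ran from 82 to 294 bp past the start. Hist1h1b also had FGFR1 peaks of 53.3 in LIF and 23.6 in replicate 1 at 987 and 973 bp past the start, beyond its end, where replicate 2 had none.

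Divergent promoters were examined pair by pair. Starts of genes facing away from each other at most 1000 bp apart formed 13 pairs, of which 12 joined an H2A and an H2B gene 176 to 306 bp apart (median 259.5) and 1 joined Hist1h2bh and Hist1h3f, 660 bp apart. FGFR1 peaks overlapped the windows of 1 H2A and H2B pair in LIF and of 3 and 9 pairs in the RA replicates. RXR and Nur77 each had a peak at 1 of these pairs in LIF and at 1 in RA, and H3.3 at none. A summit between the starts themselves occurred once, at Hist1h2bl and Hist1h2ai in replicate 2. It lay at -5 bp from the annotated start of Hist1h2ai, which is its first coding base. The RefSeq start of Hist1h2ai lies at -10 bp, so the summit is past that start. Of the 26 paired genes, 2 had FGFR1 in LIF and 6 and 20 in the RA replicates, and of the other 41 genes 21, 22 and 32 had it. Among all protein-coding genes the shares were 17.0%, 50.7% and 49.6%. Outside replicate 2, no library had peaks at more than 6 of the paired genes.

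Because neighbours share windows, the 67 genes formed 38 merged windows, of which 22 held more than 1 gene and 35 had a peak in at least 1 library. FGFR1 had peaks in 20 windows in LIF (28 peaks), 20 in replicate 1 (31 peaks) and 33 in replicate 2 (53 peaks). RXR had 8 windows in LIF and 5 in RA, Nur77 had 8 and 4, and H3.3 had 3, with 1 peak in each. Counted in windows, the FGFR1 number was the same in LIF and in replicate 1.

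Windows with a receptor mostly had FGFR1 as well, while many FGFR1 windows had no receptor. In LIF, 9 of the 20 windows with FGFR1 also had RXR or Nur77, which was 9 of the 12 windows with a receptor, and 4 had both receptors. In RA this held for 6 of 20 windows in replicate 1 and 6 of 33 in replicate 2, which were all 6 windows with a receptor, and 3 held both receptors. Counted by gene, FGFR1 was without either receptor at 14 of 23 genes in LIF (60.9%, against 10.5% of all genes with FGFR1), 21 of 28 in replicate 1 (75%, against 38.5%) and 45 of 52 in replicate 2 (86.5%, against 44.5%). Seen from the receptors, 9 of the 15 histone genes with RXR or Nur77 in LIF had FGFR1 (60%, against 32.2%). In RA all 7 had FGFR1 in both replicates (100%, against 87.7% and 77.4%). Genes with a receptor and without FGFR1 occurred in LIF alone, at Hist1h2aa, Hist1h2ba, Hist1h2bb, Hist1h2bm, Hist2h2ab and Hist2h2ac. The RXR summit at Hist1h2bm lay at -837 bp, nearer to the start of the microRNA gene Gm44357. The Nur77 summit at Hist1h2bb lay at -344 bp, nearer to the start of the pseudogene Gm11336. At Hist2h2ab and Hist2h2ac, which share a window, RXR had a peak in LIF and FGFR1 in both RA libraries.

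Hist1 falls into 4 stretches separated by more than 100000 bp, with 18, 5, 29 and 2 genes in chromosomal order. FGFR1 in LIF had peaks at 6, 1, 10 and 0 of them, replicate 1 at 3, 1, 11 and 2, and replicate 2 at 12, 5, 22 and 2. Over the whole of Hist1 the shares were 31.5%, 31.5% and 75.9%, against 17.0%, 50.7% and 49.6% of all genes. The stretch of 18 genes, from 21715763 to 21837530, thus had fewer genes in replicate 1 than in LIF. It holds the windows without unique words. In Hist2, from 96219865 to 96270132 on chromosome 3, FGFR1 had peaks at 5 of 10 genes in LIF and at 8 in each RA library, and RXR at 3 in LIF and none in RA. The Hist2 shares were 50% in LIF and 80% in RA for FGFR1. For RXR the share in LIF was 30%, against 42.5% of all genes. Both Hist3 genes had FGFR1 in RA alone, with a −log10 p of 14.3 and 43.5 at Hist3h2ba.

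Genes listed for the making and handling of histone messenger RNAs had a promoter peak in a larger share than all histone genes together in 7 libraries. For FGFR1 in LIF the shares were about the same (33.3% against 34.3%). This comparison was not matched for uniqueness of the windows. Over the 31 histone genes with at least 80% unique words, the histone share for FGFR1 in LIF was larger, at 45.2%. In the other 7 libraries it stayed smaller, with 64.5% against 77.8% for FGFR1 replicate 1 and 19.4% against 27.8% for RXR in RA. Of 18 genes listed for transcription, processing and turnover of these messages, 6 had an FGFR1 peak in LIF (33.3%, against 17.0% of all genes), and 14 and 18 had it in the RA replicates (77.8% and 100%, against 50.7% and 49.6%). RXR was found at 11 of them in LIF (61.1%, against 42.5%) and at 5 in RA (27.8%, against 23.3%). Nur77 was found at 9 and 8 (50% and 44.4%, against 25.5% and 25.8%) and H3.3 at 6 (33.3%, against 15.5%). The interval held the share of all genes in LIF for FGFR1 and RXR and in RA for RXR, Nur77 and H3.3. Slbp, which encodes the stem-loop binding protein, had a −log10 p of 22.7, 9.52 and 13.2 for FGFR1, RXR and Nur77 in LIF and of 34.7 and 150 for FGFR1 in RA, and neither receptor had a peak in RA. Npat had 14.6, 10.8 and 11.1 in LIF, and in RA 17.8 and 49.3 for FGFR1, 17.0 for Nur77 and 17.1 for H3.3. Hinfp had no FGFR1 peak in LIF and had 22.2 and 92.9 in RA. Ncbp1, a subunit of the cap-binding complex, had a peak in all 8 libraries. Of 11 genes for histones that are also made outside S phase, 5 had an FGFR1 peak in LIF (45.5%) and 10 in each RA library (90.9%). RXR was found at 7 of them in LIF (63.6%) and at 3 in RA (27.3%). Nur77 was found at 3 in LIF (27.3%) and at 4 in RA (36.4%), and H3.3 at 4 (36.4%). Against the shares of all genes just given, the interval held the background in all but the 2 FGFR1 libraries in RA. H2afx had the strongest, at 174 in replicate 2, and H3f3b, which encodes H3.3, had 9.82 in LIF and 31.6 and 106 in RA for FGFR1. H2afj had no peak.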

How the data were processed

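The 8 ChIP-seq libraries were grouped by antibody and cell state from their titles. The authors mapped reads to mm10 using Bowtie 1.0, discarded reads that mapped more than once, and ran MACS2 on every library alone at a p limit of 1e-05, with no control named. The fold in the deposited lists is a ratio of summit pileup to background. Their −log10 p and −log10 q describe the summit, and the score that the authors deposited is the −log10 p times 10, truncated. Score and q were used for checks and an alternative only.

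Depth was inferred by solving each peak's fold and −log10 p for a whole number of fragments and a background (tolerance 0.002, 100% of peaks in each library solved), tested on simulated data. Promoters were 1000 bp to either side of any of the 141767 GENCODE M21 transcript starts, and overlapping windows were merged when counting peaks. Word uniqueness was counted in the whole GRCm38 assembly on both strands. Shares carry exact Clopper-Pearson intervals at 95%. No p-value was computed. Python 3.11.15, numpy 2.4.6, pandas 2.3.3, scipy 1.17.1 and numba 0.67.0 were used.

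The genes, lists and words were chosen with earlier results of these data known. Genes named are the 2 of each type with peaks in the most libraries, the 3 strongest histone peaks of each library, genes with peaks in all libraries or none, Hist4h4 and the testis genes. Other genes were named where a count or a place was singled out, after their values were seen. Counting from the first coding base and over windows with at least 80% unique words was added after seeing the data. The other alternatives were window sizes, overlap rules, limits on p, q and fold, lists of equal length, peaks without alternating purine-pyrimidine tracts, scaling to the H3.3 depth and leaving out each FGFR1 replicate.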

Additional observations from a re-analysis of the deposited data

Results flagged for a closer look

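The number of histone genes with a promoter peak moved in different directions between LIF and RA for the 3 antibodies that were used in both states. FGFR1 had 5 more genes in RA replicate 1 and 29 more in RA replicate 2, RXR had a difference of -3 genes and Nur77 a difference of -5 genes. The difference between the antibodies was not tested, since neither receptor had a replicate in LIF or RA. Background density fell from 7.09 to 1.87 fragments per kb for RXR and from 4.98 to 3.82 for Nur77, and rose from 2.71 to 4.16 and 6.78 for FGFR1. With all libraries scaled to the depth of the H3.3 library the differences for RXR and Nur77 turned to 4 and 2 genes, and FGFR1 replicate 1 had 21 genes against 23 in LIF. With lists of equal length it had 19 against 23.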

How the results depend on the processing

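No paired analysis was possible because only 1 group had 2 libraries, so no groups shared 2 replicate numbers. Without 1 of the FGFR1 libraries in RA, the RA count ranged from 28 to 52 genes and the difference from LIF from 5 to 29. Among the alternative values of the main counts and differences, 191 stayed within 1.5 times the value reported (for FGFR1 differences, within the SD), 36 moved and 2 turned in direction. For the FGFR1 difference this limit was wide, since the SD of 17.0 genes about equalled the difference of 17. Differences without 1 FGFR1 replicate fall within it by construction, so they say nothing on stability. The values that moved concern the receptors, H3.3 and counts over all libraries. With windows of 500 bp RXR in LIF had 5 genes, Nur77 in RA had 3 and the RXR difference was -1. With windows from 5000 bp upstream RXR and Nur77 in LIF had 16 genes each, H3.3 had 5 and both differences were -9. With a −log10 p of at least 10, RXR in LIF had 5 genes in 5 windows, Nur77 in LIF had 4 in 3 windows, RXR in RA had 2 in 2 windows, the Nur77 difference was 0, and 5 windows in LIF held FGFR1 with a receptor. With lists of equal length (11378 peaks, all 10634 for H3.3) RXR in LIF had 4 genes in 4 windows, Nur77 in LIF had 2 in 2, RXR in RA had 2 in 2 and Nur77 in RA had 1 in 1. The Nur77 difference was then -1, and windows with FGFR1 and a receptor were 4 in LIF and 2 with each RA replicate. Scaled to the depth of the H3.3 library, RXR in LIF had 2 genes in 2 windows, Nur77 in LIF had 1 in 1 and Nur77 in RA had 3. The differences became 4 for RXR and 2 for Nur77, co-bound windows in LIF were 2, and 9 H2A and 9 H2B genes had a peak in any library. The cause was not tested. Scaling and equal lengths lower the number of peaks by construction. The FGFR1 counts ranged from 21 to 31 in LIF, from 19 to 33 in replicate 1 and from 41 to 59 in replicate 2 over 12 alternatives, and the mean difference stayed between 8 and 18. Peaks were present at Hist4h4 in 8 libraries under all 12. Other named genes varied, from 3 to 7 libraries at Hist1h4h, 4 to 7 at Hist1h1c and 1 to 5 at Hist1h2aa and Hist1h2ba. Of the genes without a peak, Hist1h2af ranged from 0 to 7 libraries, and Hist1h4f and Hist1h1d from 0 to 4. Each of these 3 was unchanged under 11 alternatives. Hist1h1t, Hist1h4m, Hist1h2ao, Hist1h2ap and Hist1h2bq stayed at 0. No histone peak held an alternating tract. Counts at this depth rested on few fragments, with a median per histone peak of 6 to 10.5 in the receptor and H3.3 libraries and of 17 to 49 in the FGFR1 libraries.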

Other observations

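Apart from histone genes the clusters held 2 other protein-coding genes with a start between their first and last members. Hfe, an iron-regulating gene in the large stretch of Hist1, had promoter peaks in 4 libraries, with a −log10 p of 9.58 for RXR in LIF and of 17.0, 7.34 and 7.81 for FGFR1 replicate 1, RXR and Nur77 in RA. Replicate 2, which had peaks at 22 of the 29 histone genes of that stretch, had none at Hfe. Trim17 in Hist3 had 10.1 for Nur77 in LIF and shares the FGFR1 peaks of Hist3h2a in RA.

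Of the 52 histone genes with a peak of FGFR1 replicate 2, 30 held the TATA word, 13 the octamer word and 12 the core of the cAMP response element, against 4, 2 and 6 of the 15 without a peak. For FGFR1 in LIF it was 11, 1 and 2 of the 23 genes with a peak, against 23, 14 and 16 of the 44 without. The H4 word stood before 9 of these 23 and 5 of these 44 genes. For replicate 2 it stood before 12 of the 52 with a peak and 2 of the 15 without. These are descriptions with no test. The octamer genes are all H2A or H2B genes, whose windows have the lowest median uniqueness of the 5 types. For the genes between 50% and 80% unique, FGFR1 had peaks at 5 of 26 in LIF, 5 in replicate 1 and 23 in replicate 2, against 5.02%, 13.9% and 15.3% of the 1135 protein-coding genes in that range. The fragment length of replicate 2 was 153 bp, against 114 bp in LIF and 72 bp in replicate 1, and its part in these counts was not tested.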
